A study of Mus musculus with 6 samples.

Results

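Cxcr3 and its chemokine ligands Cxcl9, Cxcl10 and Cxcl11 were followed in Eda-/- mammary buds with and without the Eda protein. The members were chosen by name as 1 receptor and its 3 classical ligands, and each was measured by 1 probe set, so 4 of the 25949 probe sets of the arrays are described. They are listed as ENSMUSG00000029417_at for Cxcl9, ENSMUSG00000034855_at for Cxcl10, ENSMUSG00000060183_at for Cxcl11 and ENSMUSG00000050232_at for Cxcr3. All 6 arrays were made from epithelial mammary buds of E13.5 embryos that lack Eda, on a B6CBA background, with littermates taken from 3 litters. Each of the 6 pools held about 20 buds from 5 to 6 embryos by the sample descriptions, and the study's methods give somewhat smaller pools. The buds of each embryo were divided, and one portion stayed untreated while the other received recombinant Fc-Eda-A1, called Fc-Eda here, for 4 h. Since controls and treated buds share the Eda-/- genotype, no wild-type level was measured. Most of the mesenchyme around the buds had been removed by hand. What was left was not checked against marker genes, because the reference used here pairs no Ensembl identifier with a gene name.

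Chemokines are small secreted proteins that guide moving cells along a gradient. Cxcl9, Cxcl10 and Cxcl11 are the CXC chemokines best known as products of interferon and NF-κB signaling, and all 3 bind Cxcr3, a G protein-coupled receptor carried above all by activated T cells and NK cells. Eda is a ligand of the Tnf family that acts through its receptor Edar and NF-κB in the epithelium of skin appendages. The 3 ligand genes stand side by side on chromosome 5 in the RefSeq annotation (GRCm38.p6), where Cxcl10 and Cxcl11 lie inside the span of Art3 and Sdad1 and Nup54 are the next protein-coding genes outside. Cxcr3 is on chromosome X. RefSeq, whose assembly is that of the strain C57BL/6J, lists Cxcl11 as a transcribed pseudogene and the other members as protein-coding. C57BL/6 mice are known for a frameshift in Cxcl11, and the allele carried by these B6CBA embryos is not known here. The arrays measured Cxcl11 RNA only.

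The regions around the start sites of 2 ligands and of the receptor are shown so that the ligands can be set against the receptor in sequence as well as in expression. Each window is 300 bases of RefSeq sequence on the strand of the gene, from 250 bases before the start site to 50 bases after it. Capitals mark matches to the general κB consensus of NF-κB or to the core of the interferon-stimulated response element (ISRE), which is GAAA followed after 2 free bases by GAAA, each searched on both strands.
Cxcl9, chr5:92328030-92328329, minus strand: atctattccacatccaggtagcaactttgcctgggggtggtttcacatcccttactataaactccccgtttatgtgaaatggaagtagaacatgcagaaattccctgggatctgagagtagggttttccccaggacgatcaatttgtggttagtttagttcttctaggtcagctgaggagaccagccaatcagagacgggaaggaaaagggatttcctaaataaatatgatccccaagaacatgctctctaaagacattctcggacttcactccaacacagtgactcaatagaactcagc
Cxcl10, chr5:92348840-92349139, minus strand: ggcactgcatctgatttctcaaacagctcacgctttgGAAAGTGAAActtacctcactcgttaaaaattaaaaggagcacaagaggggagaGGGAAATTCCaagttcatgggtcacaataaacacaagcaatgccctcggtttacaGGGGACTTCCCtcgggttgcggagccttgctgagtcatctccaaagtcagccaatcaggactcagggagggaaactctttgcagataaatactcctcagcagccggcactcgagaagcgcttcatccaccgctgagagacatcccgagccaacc
Cxcr3, chrX:101734098-101734397, minus strand: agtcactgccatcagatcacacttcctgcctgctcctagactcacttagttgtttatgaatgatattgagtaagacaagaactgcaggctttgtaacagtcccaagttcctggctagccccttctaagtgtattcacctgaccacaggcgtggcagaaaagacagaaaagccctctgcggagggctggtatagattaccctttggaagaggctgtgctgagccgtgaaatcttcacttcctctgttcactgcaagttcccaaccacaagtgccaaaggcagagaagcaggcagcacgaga
The Cxcl10 window held 3 κB matches, of which 2 overlap each other. GGGAAATTCC spans bases -159 to -150 from the start site. GGGGACTTCC starts at -104 and GGGACTTCCC at -103, and the latter reads as a match on both strands. The ISRE core GAAAGTGAAA was at -213 to -204 of the same window. The Cxcl9 and Cxcr3 windows held 0 matches to either motif. Of all 32851 promoter windows of this length, 8.46% held a κB match and 3.44% an ISRE core. A match describes the letters only, and a window without one says nothing about the factor.

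Values are given on the log2 scale as deposited, where a step of 1 is a doubling of the signal. One array stood apart from the rest. The control pool of replicate 1 had a median over its probe sets of 4.99, against 4.80 to 4.83 elsewhere, and a narrower interquartile range, 2.59 against 2.81 to 2.96. Every difference is therefore given for each replicate number, so that replicate 1 can be set aside. The brightness of a probe set depends on its probes, and levels of different genes are not ranked against each other. In pooled tissue, more cells with a transcript and more transcript per cell cannot be told apart.

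Cxcl10, in older usage IP-10, differed most between the conditions. In control buds it was at 7.27, 8.22 and 7.00 in replicates 1, 2 and 3, and after Fc-Eda at 9.58, 9.47 and 8.83. All treated pools were above all control pools, and the lowest treated value exceeded the highest control value by 0.615. The untreated pools were spread more widely than the treated ones, with 7.49 ± 0.64 (SD, n = 3) against 9.29 ± 0.40, and the control pool of replicate 2 was the high one among them. The difference within replicates was 2.31, 1.25 and 1.83, or 4.97-, 2.39- and 3.55-fold. Their mean of 1.80 (SE 0.21) equals a 3.48-fold higher signal, with a 95% interval of 2.42 to 5.00. Only 4 of the 25949 probe sets had a larger mean difference, and in each replicate Cxcl10 was among the 18 largest, with ranks 3, 18 and 8.

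Cxcl11, also called I-TAC, had the second largest difference of the members. It was at 5.60, 5.10 and 4.66 in the control pools and at 6.98, 5.79 and 6.52 after Fc-Eda. The conditions did not overlap, but the margin was narrow, with 0.189 between the treated pool of replicate 2 and the control pool of replicate 1. The mean was 5.12 ± 0.47 (SD, n = 3) in control buds and 6.43 ± 0.60 after Fc-Eda. Within replicates the difference was 1.38, 0.69 and 1.86, so that replicate 3, with the lowest control value, had the largest step. The mean of 1.31 (SE 0.22) equals 2.48-fold, with a 95% interval of 1.67 to 3.68. It ranked 13 among the mean differences of all probe sets, and 19, 186 and 7 in replicates 1, 2 and 3.

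Cxcl9, also known as Mig, had the smallest difference of the ligands and the tightest groups. Its control values were 4.69, 4.30 and 4.33, and its values after Fc-Eda were 5.18, 5.38 and 5.54. Again no treated pool came down to the level of a control pool, and the gap of 0.485 between the groups was the difference of replicate 1 itself. The means were 4.44 ± 0.22 (SD, n = 3) and 5.36 ± 0.18. Within replicates Cxcl9 differed by 0.48, 1.07 and 1.20, and its mean difference of 0.92 (SE 0.16) equals 1.89-fold, with a 95% interval of 1.43 to 2.50. The mean difference ranked 34 among all probe sets, and the ranks in replicates 1, 2 and 3 were 559, 36 and 46. The small difference of replicate 1 was measured against the control array that stood apart. After cyclic loess normalization, which evens out such shifts along the level, it was 0.65. It stayed below the values of replicates 2 and 3, which were 1.06 and 1.22. In replicate 1 of Cxcl10 and Cxcl11 the same normalization gave 2.19 and 1.38, against 2.31 and 1.38 as deposited.

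Cxcr3, the receptor, lay at 4.57, 4.18 and 4.28 in the control pools and at 4.63, 4.71 and 3.99 after Fc-Eda. The groups overlapped, since the highest and the lowest of the 6 values both came from treated buds. The mean was 4.34 ± 0.20 (SD, n = 3) in control buds and 4.45 ± 0.39 after Fc-Eda. The difference was 0.07 in replicate 1, 0.54 in replicate 2 and -0.29 in replicate 3, without a common direction, and the mean was -0.11 without replicate 2 and 0.30 without replicate 3. After cyclic loess normalization replicate 1 was at 0.31, and the mean moved to 0.18. On the deposited values the mean of 0.11 (SE 0.17) equals 1.08-fold, and its 95% interval reached from 0.80- to 1.45-fold. No background level is given with the values by which its presence in the buds could be judged.

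**Figure D1:**
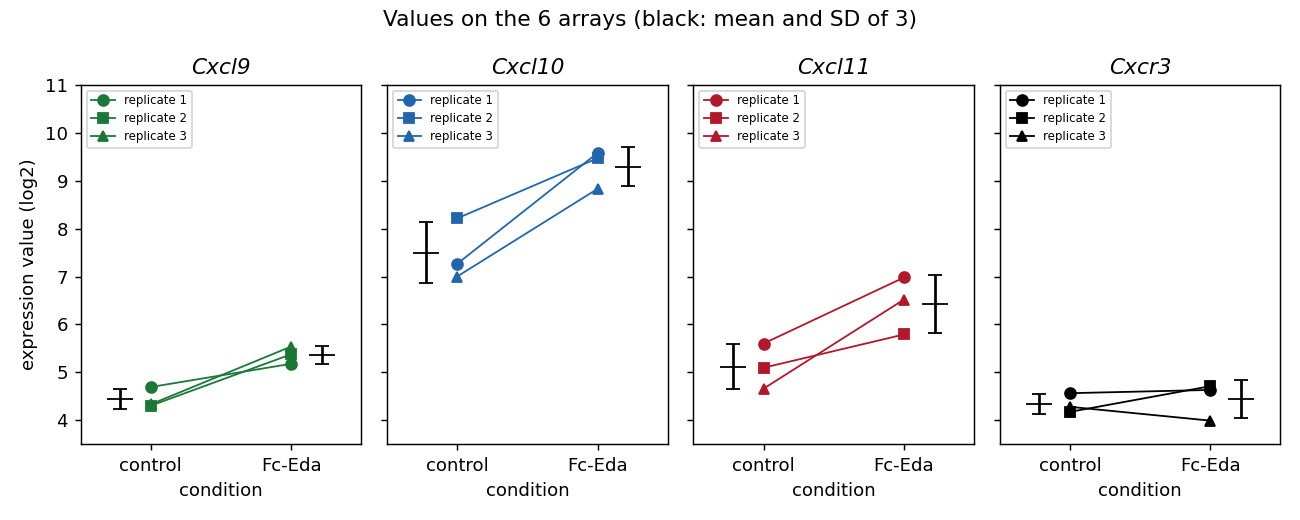
Expression value (log2) of Cxcl9, Cxcl10, Cxcl11 and Cxcr3 on the 6 arrays, by condition. Lines join the control and Fc-Eda pools of 1 replicate number, and black bars give the mean and SD of 3 pools. Each line of the ligands goes up, with treated Cxcl10 between 8.83 and 9.58 above controls between 7.00 and 8.22, while the lines of Cxcr3 go in different directions.

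In the limma fit that keeps treated and control buds of the same embryos together, none of the members passed a q-value of 0.05, and neither did any of the 25949 probe sets (0% in either direction). The q-value was 0.204 for Cxcl10, 0.346 for Cxcl9, 0.346 for Cxcl11 and 0.784 for Cxcr3. With an unadjusted limma p under 0.05 as the limit, all 3 ligands counted as higher after Fc-Eda, where 2.73% of all probe sets did (708 probe sets, beside 864, or 3.33%, that were lower). Centring each array on its median brought all 3 ligands past the threshold in limma, with q = 0.0141 for Cxcl10, 0.0292 for Cxcl9 and 0.0463 for Cxcl11, while cyclic loess and quantile normalization did not. The unadjusted limma p was 0.000268 for Cxcl10, 0.00182 for Cxcl11, 0.00187 for Cxcl9 and 0.556 for Cxcr3. The groups did not overlap in 3 of 3 ligands and in 3.98% of all probe sets, each time with Fc-Eda higher. All 3 ligands were higher in each of the 3 replicates, as were 13.2% of all probe sets.

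The methods of the study name 2 more paired tests, which borrow the variance from probe sets of similar level. In IBMT 0.339% of all probe sets passed a q-value of 0.05 as higher. Cxcl10 was among them (q = 0.0147 in IBMT), while Cxcl11 with q = 0.0555 and Cxcl9 with q = 0.0832 were not. In a test of the Cyber-T type 0.624% of all probe sets passed as higher, and so did all 3 ligands, with q-values of 0.000178 for Cxcl10, 0.00366 for Cxcl11 and 0.0188 for Cxcl9. Cxcr3 passed in neither, with q = 0.807 in IBMT and q = 0.920 in the Cyber-T type test. Of the 3 tests that the methods name, as run here, Cxcl10 was thus called by 2, and Cxcl9 and Cxcl11 by the Cyber-T type test alone. The paper lists all 3 ligands among its selected upregulated genes, with mean differences that are not the same as those found here. Without replicate 1, which holds the control array that stands apart, the Cyber-T type test still called the 3 ligands, with q-values of 6.31e-05, 0.0104 and 0.000961 for Cxcl10, Cxcl11 and Cxcl9, whereas IBMT called none, with q = 0.20 for Cxcl10. The Cyber-T type call of Cxcl9 did not hold without replicate 2 (q = 0.116) or without replicate 3 (q = 0.182).

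**Figure D2:**
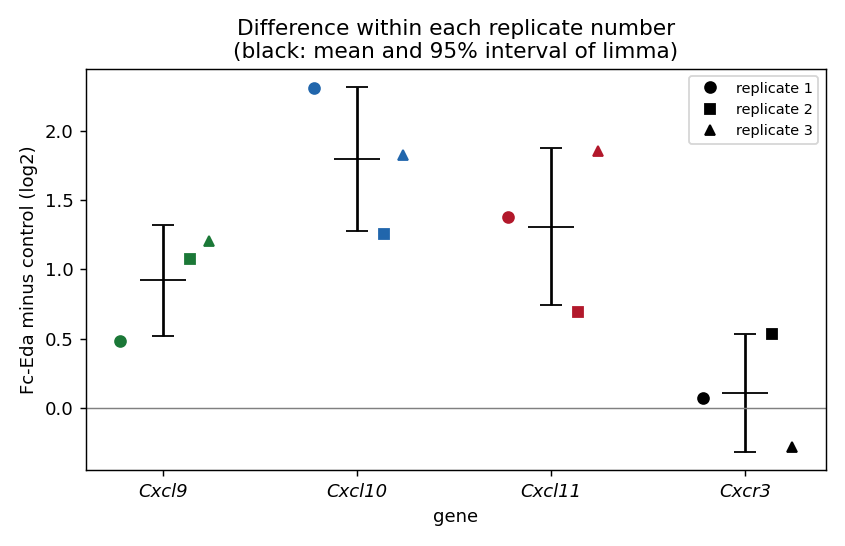
Fc-Eda minus control (log2) for each gene. Symbols give the 3 replicate numbers, and black bars the mean and the 95% interval of limma with the replicate block. The intervals of the ligands, such as 1.28 to 2.32 for Cxcl10, lie above 0, and that of Cxcr3 includes 0.

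Set against the receptor within each replicate, every ligand had the larger difference in 3 of 3 replicates. Among the 25949 probe sets, the difference of Cxcr3 ranked 8218, 443 and 24606 in replicates 1, 2 and 3. In replicate 3 most other probe sets therefore exceeded Cxcr3 as well, and few did in replicate 2. The share of all probe sets that exceeded Cxcr3 in every replicate was not determined. The difference of Cxcl10 exceeded that of Cxcr3 by 2.25, 0.72 and 2.12, with a mean of 1.69 ± 0.85 (SD, n = 3). For Cxcl11 the excess over Cxcr3 was 1.31, 0.16 and 2.15, with a mean of 1.20 ± 1.00. For Cxcl9 it was 0.42, 0.54 and 1.49, with a mean of 0.82 ± 0.59. Without replicate 3 the mean excess was 0.48 for Cxcl9 and 0.73 for Cxcl11. The exact two-sided sign-flip permutation test gave p = 0.25 for each of these 3 comparisons, which is the smallest p that 3 pairs allow, so the test cannot pass 0.05 here. For the mean of the 3 ligands the distance was shortest in replicate 2, where Cxcr3 itself was 0.54 higher after Fc-Eda and the ligands averaged 1.01. It was widest in replicate 3, where Cxcr3 was at -0.29 and the ligands averaged 1.63. Taken singly, Cxcl9 had its shortest distance in replicate 1, and Cxcl10 had its widest there.

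Among themselves the ligands did not keep one order. Cxcl10 had the largest difference in replicates 1 and 2, and in replicate 3 it was level with Cxcl11, at 1.83 and 1.86. Cxcl9 exceeded Cxcl11 in replicate 2 by 0.38 and stayed below it in the others. The difference of Cxcl10 was larger than that of Cxcl9 by 0.88 ± 0.85 (SD, n = 3) and higher in 3 of 3 replicates (exact sign-flip p = 0.25). It was larger than that of Cxcl11 by 0.49 ± 0.49, in 2 of 3 replicates (exact sign-flip p = 0.50), and Cxcl11 exceeded Cxcl9 by 0.39 ± 0.68, in 2 of 3 (exact sign-flip p = 0.50). The order Cxcl10, Cxcl11, Cxcl9 of the mean differences is therefore not shown to be separated beyond the spread between replicates. This holds also for its ends, Cxcl10 and Cxcl9, where 3 pairs cannot give a sign-flip p under 0.25. Before treatment, Cxcl10 was highest in control replicate 2. Cxcl9, Cxcl11 and Cxcr3 all had their highest control value in replicate 1, on the array whose median over all probe sets was also the highest, and the part of that shift in these values was not tested.

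**Figure D3:**
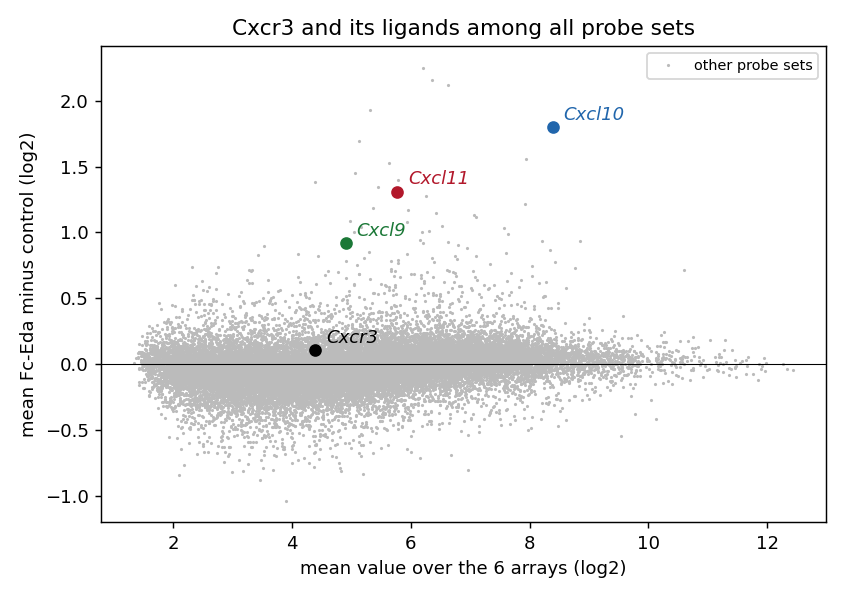
Mean Fc-Eda minus control (log2) against the mean value over the 6 arrays (log2), with 1 grey point for each probe set and the 4 members in color. Cxcl10 at 1.80, Cxcl11 at 1.31 and Cxcl9 at 0.92 lie far above the bulk of the points, and Cxcr3 at 0.11 lies within it.

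Over the 6 arrays, which share the treatment contrast, the ligands correlated with each other with Pearson r of 0.77 for Cxcl9 and Cxcl10, 0.82 for Cxcl9 and Cxcl11 and 0.77 for Cxcl10 and Cxcl11. Cxcr3 correlated with the mean of the 3 ligands with r = 0.25. These are descriptions of 6 points. Apart from the ligands themselves, 199 probe sets had r over 0.9 with their mean, and the most similar were ENSMUSG00000030538 with r = 0.999 and ENSMUSG00000029810 with r = 0.995. The shape was alike but the step was not, since their mean differences between Fc-Eda and control were 0.24 and 0.36. For Cxcr3, 108 other probe sets had r over 0.9, and the highest was 0.985. These identifiers were not matched to gene names here.

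Of all probe sets, 0.108% had a mean difference over 1 and 0.728% one over 0.5. Cxcl10 and Cxcl11 belong to the former and Cxcl9 to the latter, and Cxcr3 to neither. The control pools also differed widely in Cxcl10 and Cxcl11, whose SD between control pools was larger than that of 99.0% and 96.7% of all probe sets, against 72.4% for Cxcl9 and 68.5% for Cxcr3. The SD of the difference between replicates was 0.38 for Cxcl9, 0.53 for Cxcl10, 0.58 for Cxcl11 and 0.41 for Cxcr3. The receptor thus varied less between replicates than Cxcl10 and Cxcl11, but more than 90.8% of all probe sets, whose median SD was 0.163.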

How the data were processed

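Expression was measured on 6 Affymetrix Mouse Exon 1.0 ST arrays, 3 of control buds and 3 of buds treated with Fc-Eda. The values deposited by the authors are on the log2 scale, with 25949 probe sets named by Ensembl gene identifiers. The submitters' processing notes name RMA, and the probe set definition and build are not given in the sources used here. Detection calls were not used, and precision is limited by the small number of arrays. None of the identifiers is paired with a symbol in the reference table used here, so the 4 members were taken by their Ensembl identifiers. The planned lists of pathway genes, neighbors and cell type markers could not be matched and were not analysed here. The members and lists were chosen with earlier results of these data known.

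Arrays of 1 replicate number were paired, since their buds came from the same embryos. Deviations from the group means correlated within a pair, across probe sets, with r = 0.079, 0.29 and 0.29. All probe sets were fitted in limma 3.58.1 (R 4.3.3) with treatment and replicate number, with q-values after Storey and a threshold of 0.05. IBMT and a Cyber-T type test were written out from their formulas and may differ from the authors' programs. All tests were first tested on simulated data. Genes were named by a rule, the members and the probe sets most like them. A planned limma fit of ligands against Cxcr3, with the Cxcr3 value subtracted from all probe sets, was dropped because the shared subtraction made its prior degrees of freedom infinite, and only the exact sign-flip test is given. The comparisons between ligands and the fits of IBMT and the Cyber-T type test without single replicates were added after the values were seen. Promoter sequences are from RefSeq, GRCm38.p6, with 3 of 4 members matched. Alternatives were other variance models, adjustments, a level filter, array weights, normalizations and leaving out each pair.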

Additional observations from a re-analysis of the deposited data

How the results depend on the processing

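The direction of Cxcl9, Cxcl10 and Cxcl11 was the same under every alternative run, and Cxcr3 was past the threshold in none. Cxcr3 was at 0.18 after cyclic loess, 0.16 after quantile normalization and 0.16 with centring on the median, against 0.11 as deposited. It turned to -0.11 without replicate 2 in limma, IBMT and the Cyber-T type test. Without 1 replicate at a time the difference ranged from 0.78 to 1.14 for Cxcl9, 1.54 to 2.07 for Cxcl10, 1.04 to 1.62 for Cxcl11 and -0.11 to 0.30 for Cxcr3. In limma, Cxcl10 passed without replicate 2 (q = 0.0306) and not without replicate 1 (q = 0.435) or 3 (q = 0.0799).

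The unpaired fit changed no call of a member, and with no replicate block limma called 3 probe sets as higher. Cxcl10 at 1.80 passed the threshold with IBMT, limma with an intensity trend, the Cyber-T type test, the probe sets above the median level and the methods' t-test without adjustment, and Cxcl9 at 0.92 and Cxcl11 at 1.31 passed in the Cyber-T type test. With each array centred on its median limma called Cxcl9 (0.98, q = 0.0292), Cxcl10 (1.86, q = 0.0141) and Cxcl11 (1.37, q = 0.0463). Cyclic loess and quantile normalization, which also act on the array of control replicate 1, called none of them. In IBMT the 3 ligands passed without replicate 2 (Cxcl9 at 0.84) and without replicate 3 (Cxcl10 at 1.78). Only in the fit without replicate 3 did the estimated prior have no finite size, so that the spread of the ligands themselves was not used there. In the Cyber-T type test Cxcl10 and Cxcl11 passed without any single replicate, with Cxcl11 at 1.28 without replicate 1 and Cxcl10 at 1.78 without replicate 3, and Cxcl9 passed only without replicate 1. The excess of each ligand over Cxcr3 kept its sign under the normalizations and without any single replicate. Without replicate 3 it came down to 0.48 for Cxcl9 and 0.73 for Cxcl11.

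Probe sets called higher and lower numbered 88 and 6 with IBMT, 162 and 31 with the Cyber-T type test, 87 and 7 with an intensity trend, 85 and 6 above the median level, 56 and 1 with centring, 11 and 0 with array weights, 0 and 1 with the methods' t-test after Benjamini-Hochberg and 802 and 696 without adjustment. Without 1 replicate they ranged from 0 to 10 and from 0 to 1. Cxcr3 lies below the median level and was not tested under that filter. Without detection calls, the signal over background of Cxcr3 and Cxcl9 could not be judged.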
